A study of Homo sapiens with 6 samples.

Results

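The immediate early genes described here are the AP-1 genes FOS, FOSL1, FOSL2, JUN, JUNB and JUND, the zinc finger gene EGR1, the early response genes IER2 and IER3, and MYC. They were chosen by symbol, and 9 of the 10 matched a row of the 14200 genes in the table, while FOSL1 matched none and is not analysed here. All 9 were above the minimum level for testing, an average of 1 CPM (the read count scaled by library size), which 12865 genes reached. Polyadenylated RNA was measured by stranded sequencing in cells of Huh7, a human line derived from a hepatocellular carcinoma. The 3 SETD5 knockdown libraries came from cells given siRNA against SETD5, the gene of a chromatin protein with a SET domain, with the RNAiMAX transfection reagent. The labels name the other 3 libraries only as control, without saying what those cells received, and give no time after transfection. Both groups are from the same line, grown in DMEM with serum. No label says whether libraries of the same group were made from separate cultures, so p-values here measure only how these libraries vary, and that variation may be technical.

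Immediate early genes are transcribed within minutes of a growth factor, serum or stress signal, without the need for new protein synthesis. MAP kinases carry the signal to factors already bound at their promoters, such as serum response factor (SRF) with its ternary complex partners at CArG boxes, and CREB or ATF proteins at cyclic AMP response elements. Their messages are short-lived, many through AU-rich elements in the 3' UTR, so a steady-state level reflects both synthesis and decay. Fos and Jun proteins pair through leucine zippers to form AP-1, which binds TGACTCA. Jun proteins also pair with each other and with ATF proteins, which favour TGACGTCA. In liver, AP-1 and MYC genes are known for their induction during regeneration and in hepatocellular carcinoma.

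Below are the promoters of the 6 members with a called change and an entry in the RefSeq promoter table (GRCh38.p14), since their response elements are what upstream signals act on. Each runs from 200 bases before the annotated start to 20 bases after it, 5' to 3' on the gene's strand, and position -1 is the base just before the start. Capitals mark the matches to the searched motifs, which were the cyclic AMP response element TGACGTCA and its core TGACG (which lies within it), the AP-1 site TGACTCA with its variant TGACATCA, and the CArG box, all on either strand, and the TATA box word TATAAA on the gene's strand. CACGTG, the E box that MYC binds, was searched too and had no match in these 6.
FOS, chr14:75278628-75278847, plus strand: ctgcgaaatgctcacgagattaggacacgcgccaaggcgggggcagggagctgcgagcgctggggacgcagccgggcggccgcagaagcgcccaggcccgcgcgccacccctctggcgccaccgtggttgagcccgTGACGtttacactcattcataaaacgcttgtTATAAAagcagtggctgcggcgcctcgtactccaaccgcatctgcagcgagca
FOSL2, chr2:28392658-28392877, plus strand: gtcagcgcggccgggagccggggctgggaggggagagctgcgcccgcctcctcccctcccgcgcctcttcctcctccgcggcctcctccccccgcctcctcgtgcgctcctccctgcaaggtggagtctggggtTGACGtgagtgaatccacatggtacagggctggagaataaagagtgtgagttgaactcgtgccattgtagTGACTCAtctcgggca
JUNB, chr19:12791286-12791505, plus strand: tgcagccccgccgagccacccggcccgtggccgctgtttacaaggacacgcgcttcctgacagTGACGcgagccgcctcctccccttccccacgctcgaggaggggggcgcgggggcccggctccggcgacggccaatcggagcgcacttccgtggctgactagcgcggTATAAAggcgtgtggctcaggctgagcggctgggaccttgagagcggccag
JUND, chr19:18281603-18281822, minus strand: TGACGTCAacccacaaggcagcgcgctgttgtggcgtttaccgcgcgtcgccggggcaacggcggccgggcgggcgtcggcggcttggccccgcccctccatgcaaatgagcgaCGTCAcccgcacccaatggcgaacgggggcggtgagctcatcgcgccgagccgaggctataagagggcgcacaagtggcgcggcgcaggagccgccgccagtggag
JUN, chr1:58784028-58784247, minus strand: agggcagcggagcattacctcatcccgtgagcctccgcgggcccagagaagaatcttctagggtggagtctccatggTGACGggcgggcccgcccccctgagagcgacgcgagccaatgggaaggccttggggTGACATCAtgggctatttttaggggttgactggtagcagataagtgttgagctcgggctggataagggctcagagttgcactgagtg
EGR1, chr5:138465279-138465498, plus strand: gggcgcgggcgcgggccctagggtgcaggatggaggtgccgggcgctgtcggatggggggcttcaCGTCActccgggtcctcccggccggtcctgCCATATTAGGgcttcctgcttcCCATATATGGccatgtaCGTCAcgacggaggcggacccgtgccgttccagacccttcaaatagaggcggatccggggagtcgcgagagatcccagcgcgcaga

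The FOS window held TGACG at -64, the core of its well-studied cyclic AMP response element, and TATAAA at -33. JUN held TGACATCA at -67, an AP-1-like element through which Jun and ATF proteins act on the JUN gene, and TGACG at -123. JUNB held TGACG at -137 and TATAAA at -31, and FOSL2 held TGACG at -66 and TGACTCA at 5 to 11 past the start. JUND held TGACGTCA at -200 and TGACG at -86. EGR1 held CArG boxes at -105 and -83, of the kind that SRF binds, and TGACG at -135 and -66. The IER2 promoter, not printed because IER2 had no called change, held TGACG at -140. IER3 and MYC have no entry in the table. Each of the 7 promoters with an entry held TGACG, which 25.01% of 27305 promoters of 300 bases hold. TGACGTCA is in 1.98% of them, TGACATCA in 2.71%, TGACTCA in 4.92%, TATAAA in 7.71%, the CArG box in 1.29% and CACGTG in 7.43%. The genes with TGACG include both those called higher and those called lower, and a match describes the sequence only. Bases outside these promoters of 300 bases were not searched, so a gene without a match may hold the element farther upstream.

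After SETD5 knockdown, 5 of the 9 measured members rose (FOS, FOSL2, JUNB, JUND and MYC), 2 fell (JUN and EGR1), and IER2 and IER3 did not pass the test. The test was limma's moderated test on log2(CPM + 1) across all 12865 genes, with Benjamini-Hochberg adjustment and a threshold of 0.05, and it called 25.7% of all genes higher, 26.5% lower and 52.1% in either direction. The 7 of 9 called members stand beside that broad background, so being called is a common property in these libraries. The knockdown and control values did not overlap for 6 members, against 57.3% of all tested genes. The members' median log2 change was 0.27, against -0.0012 over all tested genes, and their median absolute log2 change was 0.30, against 0.16. No member changed by 2-fold, and the log2 scale with 1 added slightly understates the change of those at low levels.

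**Figure D1:**
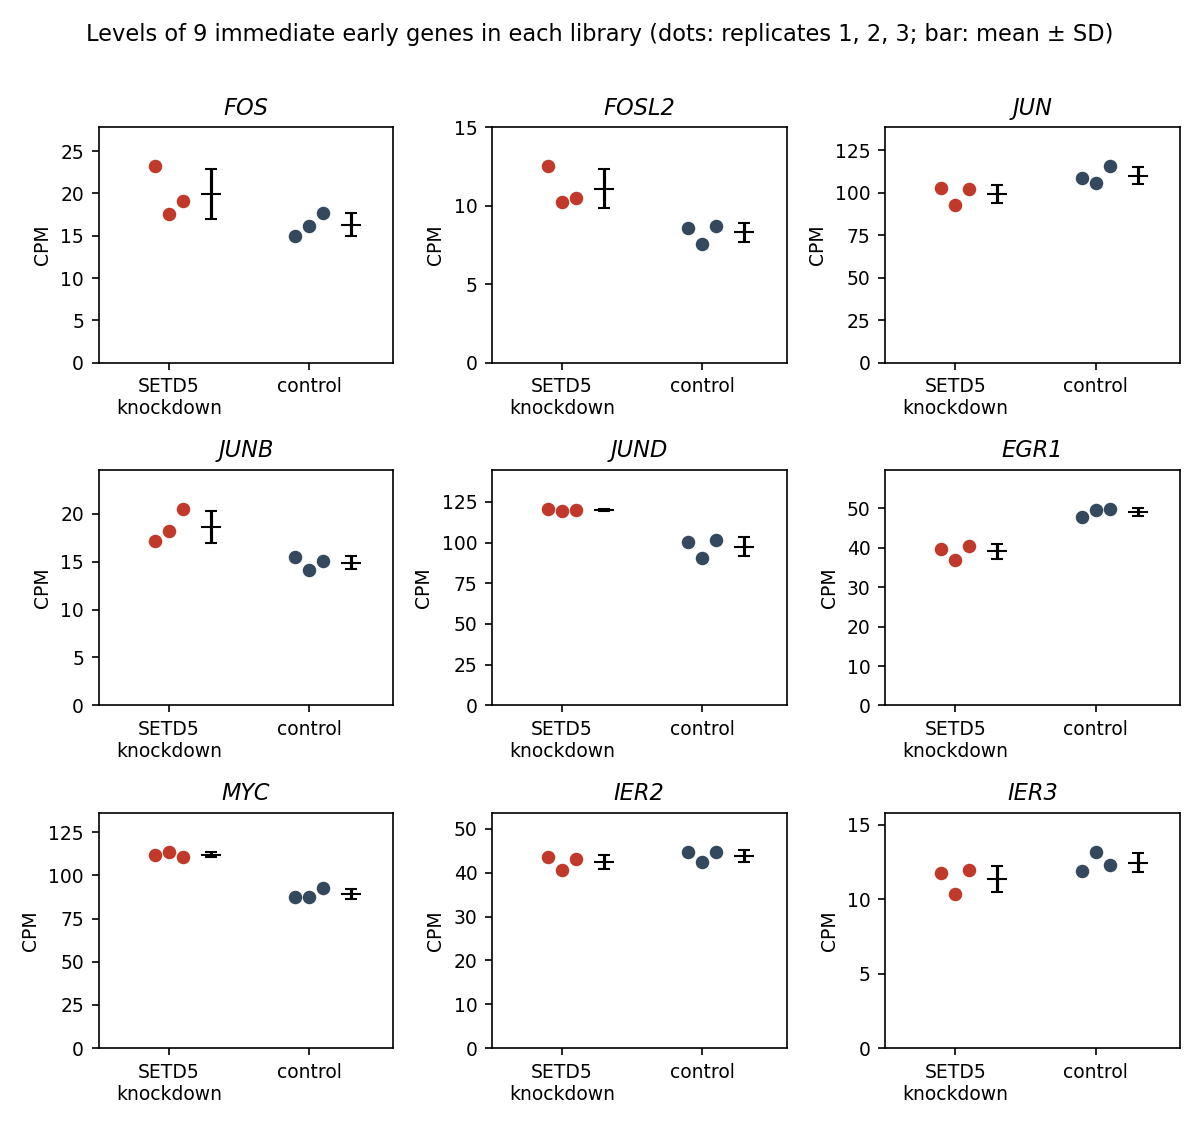
Level in CPM of each of the 9 measured members in each of the 3 SETD5 knockdown libraries (left) and 3 control libraries (right), with points for libraries and bars for the mean and SD. MYC and JUND stand apart upward after knockdown, EGR1 stands apart downward, and the FOS, IER2 and IER3 points of the groups overlap.

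**Figure D2:**
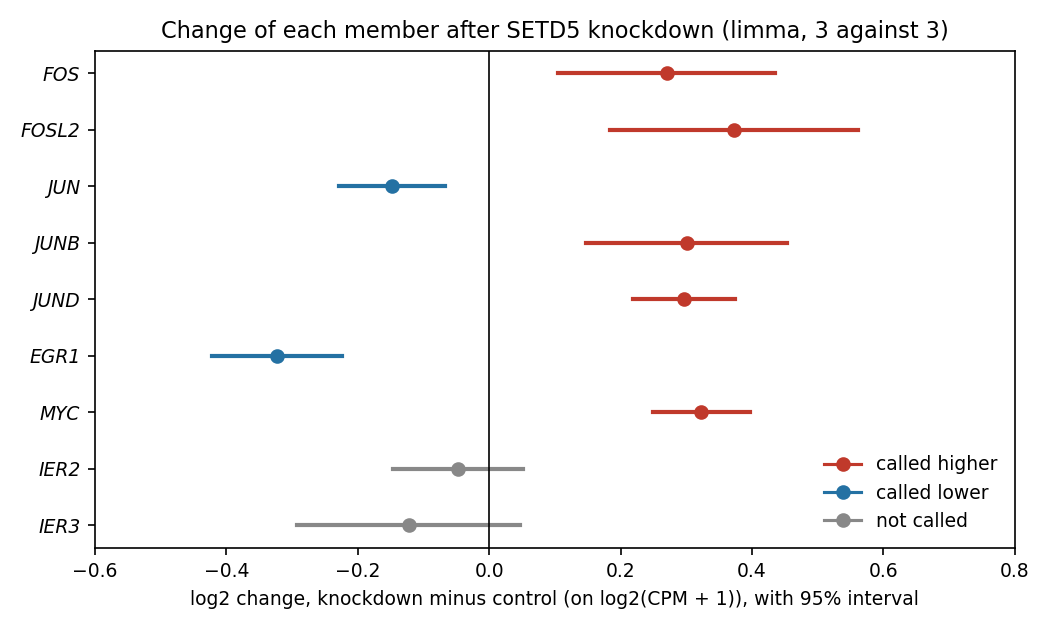
Log2 change of each measured member, knockdown minus control, with its 95% confidence interval from limma (3 against 3 libraries). The intervals of FOS, FOSL2, JUNB, JUND and MYC lie above 0, those of JUN and EGR1 below 0, and those of IER2 and IER3 span 0.

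SETD5 itself, the siRNA target, was at 136, 140.4 and 138 CPM in the knockdown libraries and at 212, 209.6 and 202 CPM in the control libraries. All knockdown values lay below all control values, and the message was 0.664 times the control (log2 -0.59, SE 0.032, limma adjusted p = 1.15e-17). The libraries held 15919552 to 16609918 recovered reads after knockdown and 14038447 to 17095417 in the controls, and no library stood apart. Huh7's hepatocyte markers were abundant in all libraries, summing over 10 genes to 41813 to 42110 CPM after knockdown and 44975 to 45983 CPM in the controls. Of these 10, 2 were higher and 7 lower, with TTR (260 ± 9.97 and 420 ± 16.9 CPM), APOB, AHSG and TF among the lower and the regulator HNF4A not called. Of 13 markers of other cell types, 9 were matched and 7 tested, of which LYZ, COL1A2 and EPCAM were higher and KRT19 was lower. They summed to 1054 to 1125 CPM after knockdown and 532 to 567 CPM in the controls, mostly from LYZ (649 ± 41.1 and 260.5 ± 13.1 CPM) and COL1A2 (282 ± 6.06 and 135 ± 2.41 CPM). CD68 and PDGFRA were not called, and the immune marker PTPRC averaged 1.59 CPM after knockdown and 1.13 CPM in the controls. The endothelial markers PECAM1 and CDH5 averaged 0.512 and 0.224 CPM after knockdown and 0.618 and 0.441 CPM in the controls. The part of these shifts in the members' changes was not tested, and in bulk RNA fewer cells of a state and less RNA per cell cannot be told apart.

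In the Fos family, FOS and FOSL2 both rose. FOS, the prototype AP-1 subunit, which must pair with a Jun protein to bind DNA, was at 23.2, 17.6 and 19.1 CPM in the knockdown libraries and at 15.0, 16.2 and 17.7 CPM in the control libraries. The groups overlap, since the second knockdown library lies just below the third control library, and the first knockdown library is the highest of all. The log2 change was 0.27 (SE 0.081, 95% interval 0.11 to 0.44, limma adjusted p = 0.00549). The exact two-sided permutation test of its 6 values gave p = 0.2, where 0.1 is the smallest that 3 against 3 libraries allow. FOS varied by a CV of 14.6% among knockdown libraries, where counting of its 232 to 371 reads alone gives 5.54%. Without the first knockdown library the log2 change was 0.16 and no longer passed (limma adjusted p = 0.117), and with no trend of variance on level in the model it did not pass either (adjusted p = 0.0784).

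FOSL2, which encodes Fra-2, a Fos protein that lacks the strong activation domain of c-Fos, was at 12.5, 10.2 and 10.5 CPM in the knockdown libraries and at 8.61, 7.59 and 8.72 CPM in the control libraries. All knockdown values lay above all control values, at 109 to 200 reads a library. It had the largest called rise of the members, 1.33 times the control (log2 0.37, SE 0.093, 95% interval 0.18 to 0.56, limma adjusted p = 0.001), and its absolute change was at percentile 83.8 of all tested genes. FOSB, the remaining Fos family gene with a row, was at 6.31, 4.79 and 5.20 CPM after knockdown and at 4.33, 3.62 and 4.57 CPM in the controls. It passed as higher (log2 0.31, SE 0.12, limma adjusted p = 0.0244), and it was picked out here after its values were seen. The log2 ratio of FOS to FOSL2 averaged 0.84 ± 0.06 after knockdown and 0.97 ± 0.15 in the controls (SD, n = 3 each), with overlapping groups and an exact permutation p of 0.3 (0.5 adjusted over the 5 family pairs compared).

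In the Jun family, JUNB and JUND rose while JUN fell. JUN, the most potent activator among the Jun proteins and a driver of hepatocyte proliferation in mice, was at 103, 93.0 and 102 CPM in the knockdown libraries and at 108, 106 and 115 CPM in the control libraries. The groups do not overlap but are close, the highest knockdown value lying just under the lowest control value. It was 0.902 times the control (log2 -0.15, SE 0.040, 95% interval -0.23 to -0.07, limma adjusted p = 0.00212), and its absolute change was at percentile 47.9 of all tested genes. JUN too did not pass with no such trend in the model (adjusted p = 0.0691).

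JUNB, a weaker activator that can oppose JUN, was at 17.2, 18.2 and 20.5 CPM in the knockdown libraries and at 15.5, 14.1 and 15.0 CPM in the control libraries. JUND, a Jun protein that is present at steady levels in resting cells, was at 120.5, 119 and 119.8 CPM after knockdown and at 100.1, 90.7 and 102 CPM in the controls. For both genes every knockdown library was above every control library. The JUND knockdown values hardly differed (CV 0.504%, less than the 2.26% that counting alone gives). JUNB was 1.25 times the control (log2 0.30, SE 0.075, limma adjusted p = 0.00102) and JUND 1.23 times (log2 0.30, SE 0.038, adjusted p = 3.92e-08).

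Within each library, JUN stood lower relative to JUNB and JUND after knockdown. The log2 ratio of JUN to JUND was -0.27 ± 0.07 after knockdown and 0.17 ± 0.05 in the controls, a difference of -0.45. JUN was below JUND in each of the 3 knockdown libraries and above it in each of the 3 control libraries. The log2 ratio of JUN to JUNB was 2.42 ± 0.14 after knockdown and 2.89 ± 0.07 in the controls, a difference of -0.47. These ratios are taken within a library, so no scaling between libraries enters them. Neither pair's groups overlap, and each exact two-sided permutation test gave p = 0.1, the smallest possible, or 0.25 adjusted over the 5 pairs, so no pair could pass the threshold. The ratio of JUNB to JUND was -2.69 ± 0.13 after knockdown and -2.71 ± 0.04 in the controls, a difference of 0.02 with an exact permutation p of 0.9. Per kilobase of transcript the JUN value lay below JUND in both groups, as given further on.

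**Figure D3:**
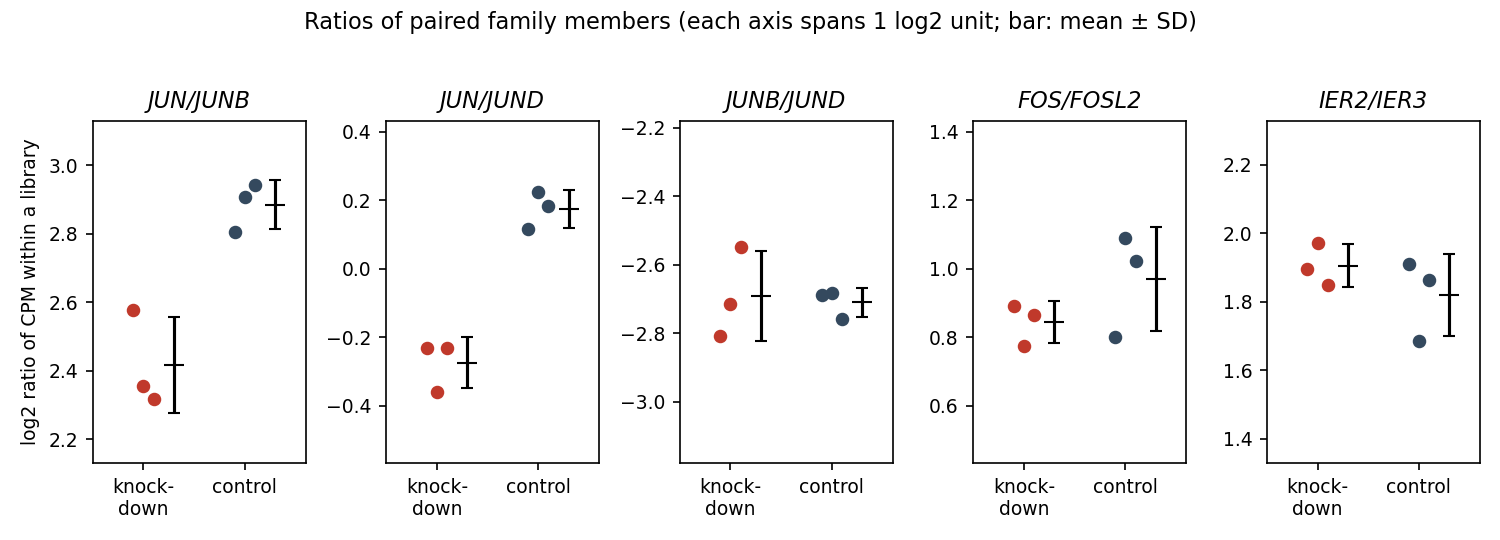
Log2 ratio of 2 family members within each library, with the 3 SETD5 knockdown libraries left of the 3 control libraries for each pair. The knockdown points of JUN/JUNB and JUN/JUND lie below all control points, by 0.47 and 0.45 on average, and those of JUNB/JUND, FOS/FOSL2 and IER2/IER3 overlap with the controls.

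Other leucine zipper proteins that pair with Fos or Jun or share their sites split in direction. Of 25 listed, 23 were tested, with 8 higher, 6 lower and 9 not called (34.8% and 26.1%), and their median log2 change was 0.05. JDP2, a repressor that pairs with Jun proteins, was higher (12.0 ± 1.13 and 8.96 ± 0.36 CPM in knockdown and control libraries, log2 0.38). NFE2L2, the activator of the antioxidant response, was lower (387 ± 2.09 and 487 ± 20.7 CPM, log2 -0.33), as was the endoplasmic reticulum stress factor ATF6B (40.6 ± 1.76 and 51.1 ± 0.62 CPM). The CREB family members ATF2 (156 and 151 CPM) and CREB1 (59.0 and 56.6 CPM) were not called.

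EGR1 was the clearest fall among the members. It encodes a zinc finger activator that is induced by growth factors through SRF and binds GC-rich sites. EGR1 was at 39.8, 37.0 and 40.4 CPM in the knockdown libraries and at 47.9, 49.6 and 49.8 CPM in the control libraries. All knockdown values lay well below all control values, on 603 to 818 reads a library. The level was 0.796 times the control (log2 -0.32, SE 0.049, 95% interval -0.42 to -0.22, limma adjusted p = 8.67e-07).

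The corepressors NAB1 and NAB2, which bind EGR1 and restrain it, moved in opposite directions. NAB2, itself induced by EGR1, was at 23.5, 22.0 and 23.3 CPM after knockdown and at 35.0, 33.6 and 32.6 CPM in the controls. It fell to 0.68 times the control (log2 -0.54, SE 0.058, limma adjusted p = 9e-10), a larger fall than that of EGR1, though the difference between the falls was not tested. NAB1 was higher, at 61.0 ± 2.32 CPM after knockdown and 54.3 ± 2.16 CPM in the controls (log2 0.16, adjusted p = 0.00233). Of the 6 listed EGR and NAB genes, 3 were matched and only these 2 were tested, since EGR2 averaged 0.468 CPM after knockdown and 0.178 CPM in the controls, under the filter.

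MYC, which encodes the basic helix-loop-helix zipper factor that pairs with MAX at E boxes to promote growth and ribosome synthesis, rose with little spread. It was at 112, 113 and 111 CPM in the knockdown libraries and at 87.5, 87.7 and 92.8 CPM in the control libraries. Every knockdown library was above every control library, and the knockdown libraries differed by a CV of 1.21%, less than the 2.34% that counting alone gives. The level was 1.25 times the control (log2 0.32, SE 0.036, 95% interval 0.25 to 0.40, limma adjusted p = 2.12e-09). JUND and MYC were the best determined rises among the members, with the narrowest intervals.

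Around MYC, the network list of partners, antagonists and turnover factors held 22 tested genes, of which 10 were higher, 2 lower and 10 not called (45.5% and 9.09%), with a median log2 change of 0.07. FBXW7, the ubiquitin ligase subunit that marks MYC and also JUN protein for degradation, was at 49.6, 50.8 and 48.6 CPM after knockdown and at 31.4, 31.6 and 34.2 CPM in the controls. It had the largest rise of the list (log2 0.60, SE 0.051, limma adjusted p = 2.01e-12). MXD1 and MGA, which pair with MAX and oppose MYC, were higher too (34.9 ± 2.53 and 27.7 ± 0.704 CPM for MXD1, and 78.6 ± 4.46 and 63.9 ± 1.47 CPM for MGA, knockdown and control). MLXIPL, the glucose-responsive factor ChREBP, was lower (19.9 ± 3.59 and 30.4 ± 3.95 CPM, log2 -0.60). The ubiquitin ligase HUWE1 (410.1 and 398 CPM) and the helicase RUVBL2 (135 and 139 CPM) were not called. Without the third knockdown library HUWE1 passed as higher, with a log2 change of 0.13 in place of 0.03 (limma adjusted p = 0.00395).

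Listed targets of MYC did not move one way. Of 25 tested genes that MYC activates, 5 were higher, 5 lower and 15 not called (20% in each direction), with a median log2 change of 0.01, where 25.7% and 26.5% of all genes were called higher and lower. The polyamine enzyme ODC1 was higher (314 ± 17.3 and 231 ± 10.6 CPM, log2 0.44), as were PTMA (1380.0 ± 34.6 and 1159.6 ± 23.1 CPM) and CDK4 (277 ± 9.09 and 237 ± 3.88 CPM). LDHA, which makes lactate and is also a hypoxia target, had the largest change of the list and was lower (768 ± 19.2 and 1230.2 ± 23.2 CPM, log2 -0.68). The nucleolar proteins NPM1 (2101 and 2026 CPM) and NCL (1653 and 1720.3 CPM) were not called, but both depended on the setting. NPM1 passed as higher with median centring, with voom and without the second control library (limma adjusted p = 0.0479, 0.0130 and 0.00729), and as lower under quantile normalization (log2 -0.081, adjusted p = 0.00183). NCL passed as lower with quantile normalization, with voom and without the second knockdown library (limma adjusted p = 0.00721, 0.0340 and 0.0145). Of 10 tested genes that MYC represses, 5 were higher and 4 lower, with a median of 0.09. CEBPD (10.9 and 6.88 CPM, log2 0.60) and KLF6 (75.6 and 56.8 CPM, log2 0.41) were higher. PDGFRB was lower (18.2 and 25.2 CPM, log2 -0.45), and the cell cycle inhibitor CDKN1A was lower at a low level (1.98 ± 0.309 and 3.06 ± 0.611 CPM, log2 -0.44). The CDKN1A call was lost without the first knockdown library (adjusted p = 0.0552) or the second control library (adjusted p = 0.0731). CDKN1B was at 86.0 and 85.2 CPM and was not called.

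IER2 and IER3 did not pass the test. IER2, a nuclear protein induced by serum, was at 43.7, 40.7 and 43.1 CPM in the knockdown libraries and at 44.7, 42.3 and 44.7 CPM in the control libraries. The groups overlap, and the log2 change was -0.05 (95% interval -0.15 to 0.05, limma adjusted p = 0.44). IER3, a stress-induced regulator of cell survival, was at 11.8, 10.4 and 12.0 CPM after knockdown and at 11.9, 13.2 and 12.3 CPM in the controls. Its groups overlap only narrowly, and the log2 change was -0.12 (95% interval -0.29 to 0.05, adjusted p = 0.227), an interval that still allows a fall near that of EGR1. The log2 ratio of IER2 to IER3 averaged 1.90 ± 0.06 after knockdown and 1.82 ± 0.12 in the controls, with an exact permutation p of 0.5 (0.625 adjusted over the 5 pairs).

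Levels of the members were compared per kilobase of a GENCODE 29 transcript, 1 per gene. JUND was highest at 64.3 ± 0.324 CPM per kb after knockdown and 52.3 ± 3.15 in the controls, and MYC followed at 47.3 ± 0.571 and 37.8 ± 1.27. Then came JUN at 28.0 ± 1.52 after knockdown and 31.1 ± 1.39 in the controls, followed by IER2 at 20.4 and 21.1 and EGR1 at 12.5 and 15.6 CPM per kb. This upper part of the order, JUND, MYC, JUN, IER2 and EGR1, was the same in both groups with no overlap between neighbours. Below it, JUNB (10.2 ± 0.921), FOS (9.24 ± 1.35) and IER3 (9.13 ± 0.694) overlapped in the knockdown libraries. In the controls IER3 was at 10.0 ± 0.525, JUNB at 8.18 ± 0.383 and FOS at 7.55 ± 0.635 CPM per kb, and JUNB and FOS overlapped there. FOSL2 was lowest at 1.65 ± 0.185 after knockdown and 1.24 ± 0.0925 in the controls.

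Within the groups the lowest and the highest values often fell in the same library. The second knockdown library had the lowest value of its group for 7 of the 9 members (FOS, FOSL2, JUN, JUND, EGR1, IER2 and IER3), and the first had the highest for 5. Among the controls, the third library had the highest value for 7 of the 9 members (all but JUNB and IER3) and the lowest for none. The third control library was also the smallest, at 14038447 recovered reads, and the second knockdown library held 16364604. These counts were not set beside those over all tested genes, so they do not show a trait of the members. The part of library size in this scatter was not tested.

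Other immediate early genes, outside the members, were more often called higher than lower. Of 42 listed, 40 were tested, with 21 higher, 7 lower and 12 not called (52.5% and 17.5%), and their median log2 change was 0.16. SGK1, a serum- and glucocorticoid-induced kinase, was at 113, 107 and 123 CPM after knockdown and at 53.6, 52.3 and 57.1 CPM in the controls. It was the only tested gene of this list past 2-fold (2.10 times the control, log2 1.06, SE 0.045, limma adjusted p = 8.78e-21). The antiproliferative gene BTG1 (167 ± 5.96 and 98.2 ± 1.12 CPM, log2 0.76) and DUSP5, a nuclear phosphatase that inactivates ERK (249 ± 7.54 and 161 ± 3.46 CPM, log2 0.62), followed. The largest fall was that of CTGF, a matricellular gene driven by YAP and SRF, at 93.8, 88.3 and 90.5 CPM after knockdown and 149.7, 158 and 158 CPM in the controls (log2 -0.76, SE 0.035, adjusted p = 1.4e-19). ID1 (564 and 579 CPM) and MCL1 (260.2 and 255 CPM) were not called.

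**Figure D4:**
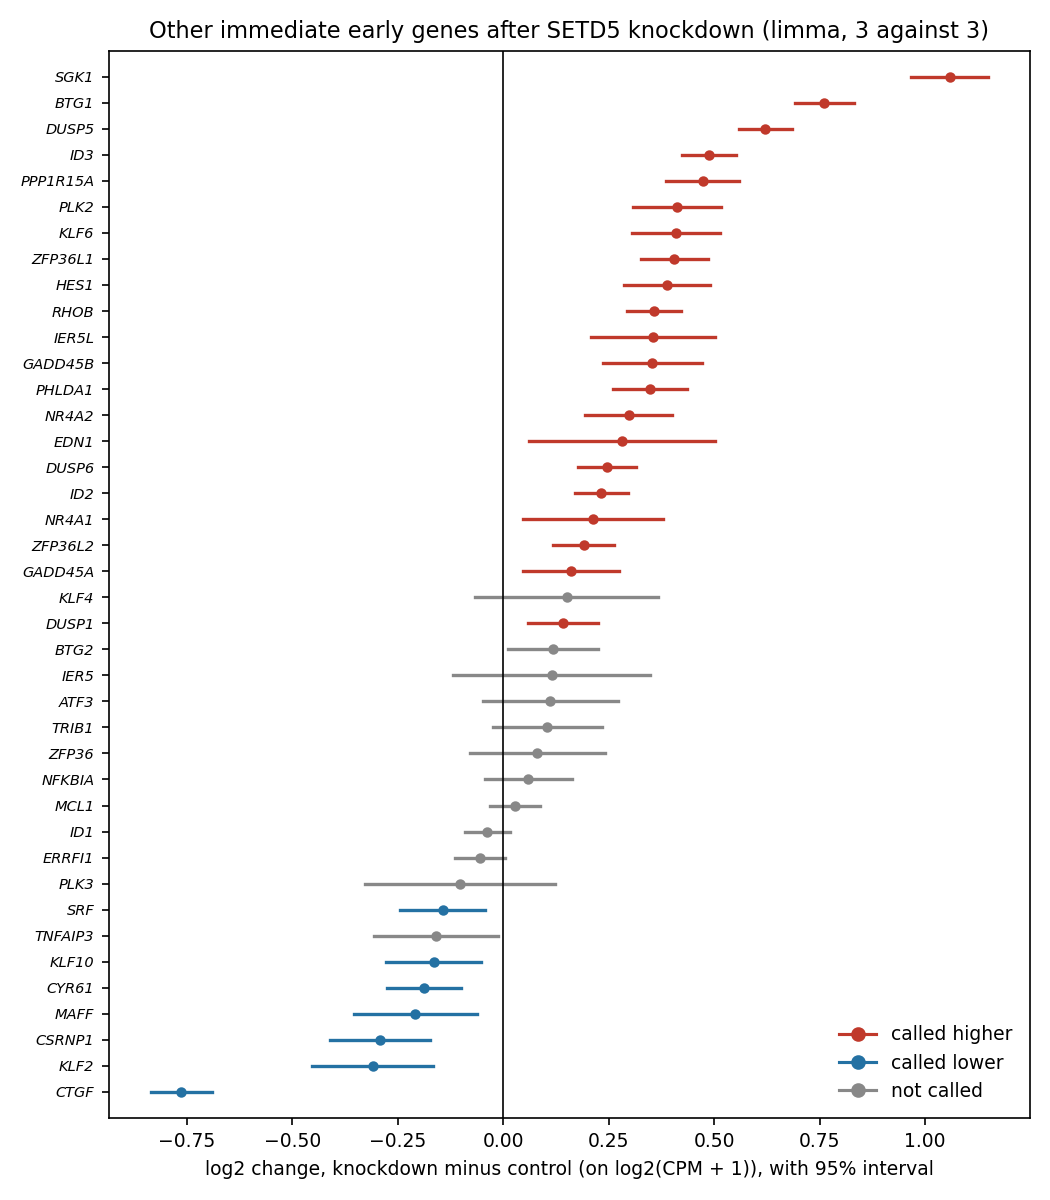
Log2 change, knockdown minus control, of the 40 tested immediate early genes outside the members, with 95% confidence intervals from limma (3 against 3 libraries), sorted by size. SGK1, BTG1 and DUSP5 lie at the top at 1.06, 0.76 and 0.62 and CTGF at the bottom at -0.76, and most of the rest lie within the range of the members' own changes.

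More of the upstream signalling genes were called lower than higher. Of 25 tested MAP kinases, their activating and downstream kinases, SRF and its cofactors, 5 were higher, 10 lower and 10 not called (20% and 40.0%), with a median log2 change of -0.07. MAPK8, which encodes the JNK1 kinase that phosphorylates JUN, was lower (48.0 ± 1.29 and 61.1 ± 2.65 CPM, log2 -0.34). The p38 kinase activators MAP2K6 (6.20 ± 0.588 and 8.18 ± 0.171 CPM) and MAP2K3 (37.3 ± 1.21 and 46.3 ± 2.26 CPM) were lower too. RPS6KA3 (1508 and 1493 CPM) and MAP2K1 (86.6 and 90.8 CPM) were not called. These are message levels, and no kinase activity was measured.

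Among classical AP-1 targets, the genes of the urokinase protease and of EGF receptor ligands were higher. Of 24 listed, 13 were tested, with 5 higher, 2 lower and 6 not called (38.5% and 15.4%), and a median log2 change of 0.06. AREG, an EGF receptor ligand, was at 7.19, 7.18 and 7.12 CPM after knockdown and at 1.17, 0.557 and 0.786 CPM in the controls. All knockdown values lay far above the controls (8.55 times, log2 2.16 on the scale with 1 added, limma adjusted p = 3.23e-16). AREG had only 8 to 119 reads a library, so the ratio rests on few control reads. PLAU, the urokinase protease, was at 57.8, 56.8 and 62.3 CPM after knockdown and 23.8, 24.2 and 29.2 CPM in the controls (log2 1.17, adjusted p = 1.92e-18). HBEGF, a second ligand of that receptor, was higher too (13.1 ± 1.6 and 6.76 ± 0.606 CPM, log2 0.85). GSTP1 (917 and 887 CPM) and CCND1 (275 and 265 CPM) were not called, though GSTP1 passed as higher under quantile normalization (log2 0.09, limma adjusted p = 0.00193) and voom (adjusted p = 0.0493). All of these genes have other regulators, and AP-1 binding was not measured.

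**Figure D5:**
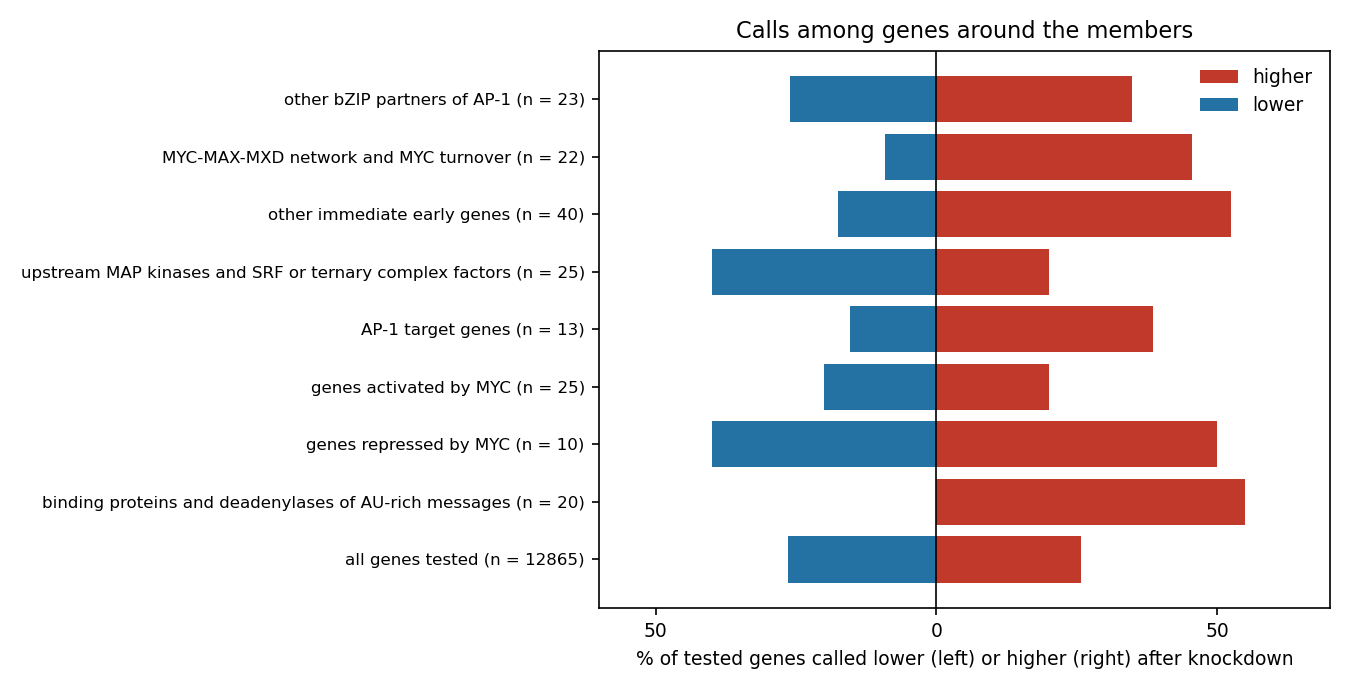
Share of the tested genes of each list with at least 10 tested genes that limma called lower (left) or higher (right) after knockdown, with the share over all 12865 genes at the bottom (26.5% lower, 25.7% higher). Other immediate early genes and the AU-rich binding list reach 52.5% and 55.0% higher, the upstream kinases reach 40.0% lower, and each bar rests on only 10 to 40 genes.

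Because message decay helps to set the level of many members, proteins that bind AU-rich messages and the deadenylases were listed as well. Of 20 tested, 11 were higher, none was lower and 9 were not called (55.0% higher), with a median log2 change of 0.11. ZFP36L1, which recruits deadenylases to AU-rich elements, was highest in change (137 ± 9.03 and 103 ± 2.94 CPM, log2 0.40, limma adjusted p = 5.93e-11), and its paralog ZFP36L2 was at 168 ± 4.64 and 148 ± 7.9 CPM. The deadenylase CNOT6 (133 and 115 CPM) was also higher, while CNOT1 (386 and 390 CPM) and KHSRP (322 and 318 CPM) were not called. Some genes stand in more than 1 list, ZFP36L1 and ZFP36L2 among them, so the list counts are not independent.

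In the members' own 3' UTRs (GENCODE 29), the AU-rich pentamer ATTTA occurred 9 times in FOSL2, 6 times in IER3, 5 times in FOS, 4 times in MYC, 3 times in JUN, 2 times in JUNB and 1 time each in JUND and EGR1. IER2 had none. The longer word TTATTTATT occurred 1 time each in FOS and FOSL2, and 8.27% of the 11605 tested genes with a 3' UTR hold it, where 69.7% hold ATTTA. Among the members that rose, copies of ATTTA ran from 1 in JUND to 9 in FOSL2, and those that fell held 3 (JUN) and 1 (EGR1). Their 3' UTRs differ in length, from 476 bases in MYC to 4864 in FOSL2, and the copies were not scaled to it. The word GCACCT was also counted, having been picked from earlier results of these data. Of its 3249 holders 34.7% were lower and 24.5% higher (median log2 -0.04), and of the 8356 genes without it 24.2% were lower and 28.04% higher (median 0.01). Since the word came from these data, these shares are not an independent result, and holders and other genes were not matched for UTR length. Among the members FOSL2 holds it 2 times and IER2 1 time, and the other measured members hold none in these transcripts.

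The genes most like FOSL2, the member with the largest called rise, and EGR1, the member with the largest called fall, were sought among the 10693 genes that averaged 5 CPM or more. Likeness was the root mean square distance between the 6 libraries' log2 deviations from the gene's own control mean. Nearest to FOSL2 were RAB33B at 0.049, ANTXR1 at 0.051 and CCDC102A at 0.056. RAB33B, a small GTPase of the Golgi, was at 29.2 ± 1.85 CPM after knockdown and 23.0 ± 0.972 CPM in the controls. Nearest to EGR1 were HOXC10 at 0.017, MCEE at 0.020 and SGSM3 at 0.021. SGSM3 was at 66.5 ± 3.14 CPM after knockdown and 84.3 ± 0.683 CPM in the controls. With 6 libraries and many changed genes, such matches describe the pattern only.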

How the data were processed

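Poly(A)-selected, stranded mRNA libraries of Huh7 cells were sequenced, 3 after SETD5 knockdown and 3 controls, per the labels' protocols. The submitters' processing notes name STAR 2.5.1, R 3.3.0 and the builds hg19 and mm10, with no role for each; how reads were counted, and with which strand setting, is not given in the sources used here. A single table was used. The authors deposited log2 values for 14200 genes. Undoing the log2 and taking off 1 left whole multiples of a step that was fixed per column (100% within 0.01 of a whole read), so the deposited values are log2(CPM + 1). All 6 columns entered. Reads recovered from the steps gave the library sizes, and 3 reads correspond to 0.176 to 0.214 CPM; this precision covers counting error only.

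Genes that averaged 1 CPM or more were tested (12865, leaving out 1335). The two-sided test was limma 3.58.1, run in R 4.3.3, as a linear model of group alone with moderated variances that follow a trend on level. Benjamini-Hochberg adjustment was over every tested gene, at a threshold of 0.05. Levels are means ± SD of CPM (n = 3). Family pairs were compared by exact permutation tests (Python 3.11.15, scipy 1.17.1). The fit was also run on simulated reads, with far fewer changed genes than were called here and the same extra spread for every gene. That run therefore does not measure the error rates in these libraries. A chi-square statistic of recovered reads was 1.25 to 2.11 per gene within groups and 19.9 to 24.3 between groups, so no libraries were duplicates.

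The members and the 11 gene lists were chosen with earlier results of these data known. Named genes are the members, SETD5, and from each list up to 4 called genes, taken by absolute change, and up to 2 uncalled genes, taken by level. For FOSL2 and EGR1, the 3 nearest genes were added. Some genes the rule takes are not reported here. Promoter sequences are from RefSeq (GRCh38.p14), transcript lengths and 3' UTRs from GENCODE 29. Alternatives were a replicate block, a pseudocount of 0.1, no filter, no trend, median centring, quantile normalization, voom on the recovered reads, and leaving out each library.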

Additional observations from a re-analysis of the deposited data

How the results depend on the processing

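Directions and calls of the 9 members were recomputed under 13 alternatives. With no trend the count of members lower was 1 in place of 2, since JUN kept its log2 change of -0.15 without passing (limma adjusted p = 0.0691), and FOS kept 0.27 without passing (adjusted p = 0.0784). Leaving out 1 library gave FOS log2 changes of 0.16 to 0.35, and without the first knockdown library it did not pass (adjusted p = 0.117). Over all alternatives the adjusted p ranged from 0.000568 to 0.117 for FOS and from 0.000202 to 0.0691 for JUN; FOSL2, JUNB, JUND, EGR1 and MYC passed and IER2 and IER3 did not in every alternative run. With the replicate block 5 members were higher and 2 lower, and over all genes 3399 were higher and 3499 lower, against 3303 and 3403 without it. Deviations of same-numbered libraries correlated at -0.011, 0.054 and 0.042, and those of differently numbered libraries at -0.060 to 0.021. Not every library correlated best with its own number, and whether same-numbered libraries share a batch was not tested.

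Median centring and quantile normalization moved the median of all genes by 0.011 and 0.010. NPM1, not called, passed as lower at -0.081 under quantile normalization (adjusted p = 0.00183) and as higher under 4 alternatives, the replicate block (adjusted p = 0.0468), median centring, voom, and without the second control library. NCL passed as lower under 4, the replicate block (adjusted p = 0.0321), quantile normalization, voom, and without the second knockdown library. The cause was not tested. List counts that moved by over 1.5 times were small ones. The MYC network's 2 lower genes became 1 with no trend, median centring, quantile normalization, voom, and without the second or the third library of either group. Upstream genes called higher were 3 without the first knockdown or the second control library. MYC-activated genes called lower were 2 with no trend or without the third knockdown library, 3 with median centring and 8 with quantile normalization. MYC-repressed genes called higher were 3 without the third knockdown library, and 1 AU-rich binding gene was lower without the first control library. Hepatocyte markers called higher were 1 with no trend, quantile normalization, or without the first control library. Of 66 other named genes, 5 changed their call or direction under at least 1 alternative (NPM1, NCL, HUWE1, GSTP1 and CDKN1A). Depth limits the low genes most, FOSL2 with 109 to 200 reads a library among the members.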
